A study of Mus musculus with 8 samples.

Results

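The genes described here are the 32 genes of the count table that encode the machinery for moving new proteins into the endoplasmic reticulum (ER) and for adding N-linked sugars to them. They were chosen by name, for what their products are known to do, as parts of the signal recognition particle (SRP, 5 genes), its receptor (2), the Sec61 channel (4), the channel partners Sec62, Sec63 and Tram1 (3), the translocon-associated protein (TRAP) complex (4), signal peptidase (5) and the oligosaccharyltransferase (OST, 9). The list uses no threshold on a measured value, but it was selected on earlier results of the same knockout and heterozygous libraries. The fold changes, calls and counts of these genes are therefore given as a description of the measured values and support nothing by themselves. All 32 were found among the 24421 rows of the table, and all 32 were among the 13540 genes that passed the filter on low counts.

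RNA was measured in 8 libraries of sorted endothelial cells from the brains of C57Bl6 mouse embryos at mid-gestation (E14.5), 4 from Flvcr2 knockout and 4 from Flvcr2 heterozygous embryos. The mutated Flvcr2 allele drives GFP, and flow cytometry collected cells with GFP and with CD31, an adhesion protein that marks endothelium, so the heterozygous cells carry a mutated allele and GFP too. RNA from 2000 to 5000 cells was copied with the SMART-Seq v4 kit, made into libraries with the Nextera XT kit and sequenced as single reads of 50 bases. Whether each library came from its own embryo is not stated in the labels, so the p-values describe library-to-library spread, which may be technical in part.

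Proteins meant for the cell surface, for secretion or for the ER and Golgi carry a signal sequence that the signal recognition particle binds as it leaves the ribosome. The particle docks the ribosome at its receptor on the ER membrane, the chain passes through the Sec61 channel with the help of TRAP and other partners, signal peptidase cuts the signal sequence off, and the oligosaccharyltransferase transfers a preassembled sugar chain to asparagine residues. Endothelial cells make much of their basement membrane, receptors and junction proteins through this route.

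Total counts were between 12.1 and 35.9 M in the knockout libraries and between 9.11 and 22.6 M in the heterozygous libraries, and each of the 32 genes had at least 213 counts in every library. Levels are in CPM, counts relative to a library size scaled by edgeR's TMM factors. Differences are log2 fold changes of knockout over heterozygous from edgeR's quasi-likelihood test across all tested genes, and a gene is named as called where its Benjamini-Hochberg adjusted p over those genes is under 0.05. The median log2 fold change of all tested genes was -0.03. With library size alone in place of TMM factors it was -0.15, so fold changes are relative to that choice of scaling. The targeted gene, listed as Mfsd7c, the older symbol of Flvcr2, had 392, 227, 259.6 and 326 CPM in knockout libraries 1 to 4, against 275, 444, 578 and 409 CPM in heterozygous libraries 1 to 4. The groups overlapped and the gene was not called (adjusted p = 0.209 by edgeR). The labels do not give the mutated part of the gene, so a count over the whole gene does not check the genotypes.

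Endothelial markers were abundant in every library, with a sum over 10 genes of 8419 to 11569.9 CPM in knockout and 6297 to 11033 CPM in heterozygous libraries. Of these 1, Emcn, was called higher and 0 lower (4 higher and 1 lower at an unadjusted p under 0.05 by edgeR, and 4 higher and 1 lower by DESeq2). Pecam1, which encodes the sorted CD31, averaged 857 ± 205 CPM in knockout and 523 ± 151 CPM in heterozygous libraries (SD, n = 4 each), with overlap, and was not called (edgeR adjusted p = 0.0936). The part of these markers in the levels of the 32 genes was not tested. Several markers of other cells were called lower in the knockout libraries. The 10 neuron markers summed to 92.4 to 267 CPM in knockout and 282 to 1719.7 CPM in heterozygous libraries, and 7 of them were called lower. The 6 erythroid markers summed to 18.1 to 51.7 CPM in knockout and 228 to 610.2 CPM in heterozygous libraries, and 2 of the 4 tested were called lower; Hbb-bh1 was at 0 in 3 knockout libraries. Pericyte markers summed to 22.6 to 170.3 CPM in knockout and 171 to 274 CPM in heterozygous libraries, with 2 of 8 called lower. Microglia markers summed to 101 to 649 CPM in knockout and 399 to 1127 CPM in heterozygous libraries, with 1 of 8 called lower. Radial glia markers summed to 1318 to 1563 CPM in knockout and 1299 to 1411 CPM in heterozygous libraries, with 3 of 8 called lower. That sum follows the most abundant genes of the list. The median log2 fold change of the 8 genes was -1.76, with 2 of them above 0. Their mean log2 CPM was 3.04 to 5.0 in knockout and 5.11 to 6.19 in heterozygous libraries, with no overlap. Fibroblast markers summed to 94.8 to 507 CPM in knockout and 206 to 328 CPM in heterozygous libraries, with 0 of 6 called by edgeR (1 lower at an unadjusted p under 0.05 and 1 lower by DESeq2). No marker of these lists was at 0 in every library. A mean log2 CPM over the 6 lists of other cells was 2.59 to 3.84 in knockout and 4.78 to 5.69 in heterozygous libraries, with no overlap, so it moved with genotype. With that mean as a covariate, 0 of the 32 genes were called (1 at an unadjusted p under 0.05, by edgeR) and 0 of all genes were called (936 at an unadjusted p under 0.05), while the median log2 fold change of the 32 genes was 0.49. Single genes moved in both directions under this covariate: the log2 fold change of Rpn2 was 0.0027 with it and 0.64 without it, and that of Sec61a2 was 1.02 with it and 0.41 without it. Genotype and this mean cannot be told apart in these libraries. In such bulk samples fewer cells of a type and less RNA per cell cannot be told apart either.

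All 32 genes had a higher mean level in the knockout libraries with TMM scaling; Srp9 turned below 0 with library size alone (log2 fold change -0.06) and with upper-quartile factors (-0.02). Of the 32 genes, 13 were called higher and 0 lower (0 also with DESeq2 and with limma voom, and 0 at an unadjusted p under 0.05), while 5.53% of all tested genes were called higher and 4.02% lower. Nothing is read from this count, since the genes were listed with this contrast known. With TMM scaling, in 16 genes every knockout library was above every heterozygous library, and in 0 genes below. Over all tested genes the shares were 9.71% above and 7.9% below. TMM factors were 0.933 to 0.983 in knockout and 1 to 1.1 in heterozygous libraries, which raised knockout levels relative to heterozygous ones. Narrow gaps between the groups therefore depend on the scaling, and separation with library size alone was not counted. The median log2 fold change of the 32 genes was 0.49, with a range of 0.06 to 1.04. Their summed level was 11217, 10464, 10269.8 and 10435 CPM in knockout libraries 1 to 4, against 5862, 6975, 6843 and 7382 CPM in heterozygous libraries 1 to 4. The sums did not overlap, and their means were 10596 ± 422 CPM in knockout and 6766 ± 645 CPM in heterozygous libraries (SD, n = 4 each), a ratio of 1.57. The same sum over all tested genes had a ratio of 1.09, also without overlap, which reflects the TMM factors. Ratios of summed levels, here and for each complex below, include that part.

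**Figure D1:**
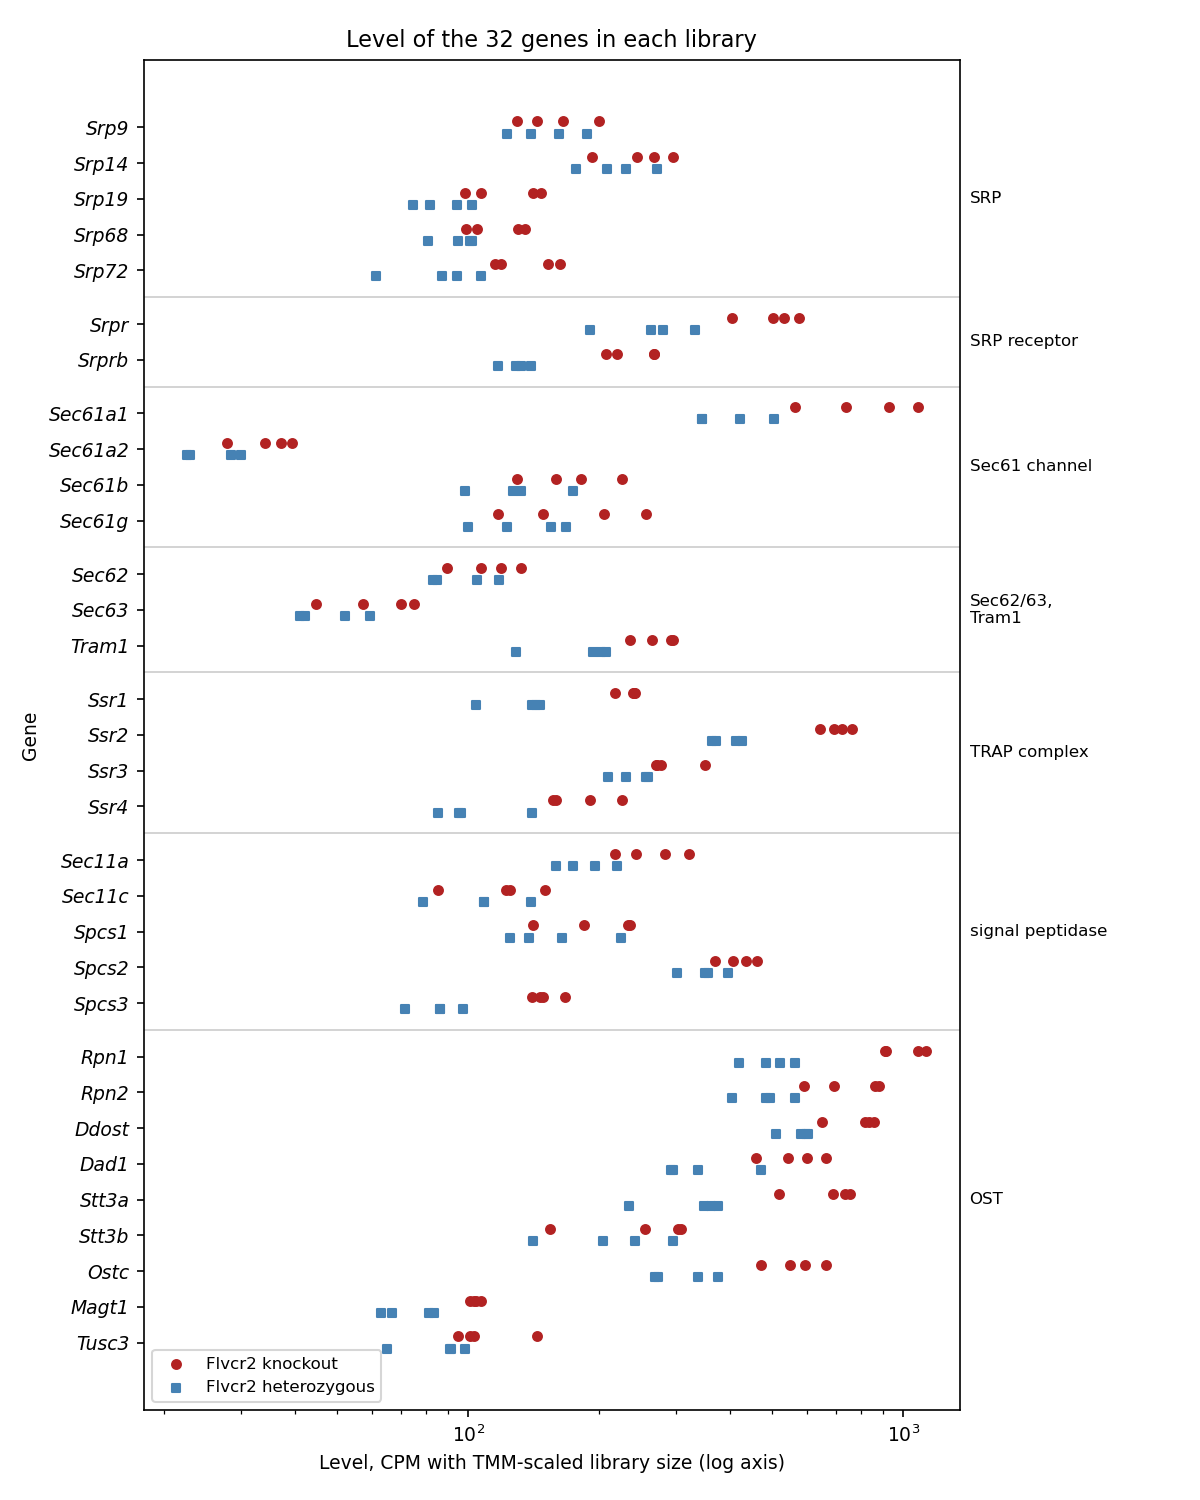
Level of each of the 32 genes in CPM (log axis), 1 red circle per knockout library and 1 blue square per heterozygous library, grouped by complex. With TMM scaling the 2 sets of points are apart in 16 genes, among them both receptor subunits and all 4 TRAP genes, and mixed in Srp9, Sec61g and Stt3b.

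The complexes differed in how many of their genes were called, beside 5.53% of all tested genes called higher. Both receptor genes, 3 of 4 TRAP genes and 6 of 9 OST genes were called, against 1 of 4 Sec61 channel genes, 1 of 5 signal peptidase genes, 0 of 5 SRP genes (2 at an unadjusted p under 0.05, 1 by DESeq2, 0 by limma voom) and 0 of 3 among Sec62, Sec63 and Tram1 (1 at an unadjusted p under 0.05, 1 by DESeq2, 1 by limma voom). The median log2 fold change was 0.91 for the receptor, 0.81 for TRAP, 0.64 for OST, 0.41 for the channel, 0.34 for Sec62, Sec63 and Tram1, 0.30 for the SRP and 0.29 for signal peptidase. With the mean of the other-cell lists as a covariate the medians were 0.65 for the receptor, 0.53 for TRAP, 0.32 for OST, 0.89 for the channel, 0.17 for Sec62, Sec63 and Tram1, 0.31 for the SRP and 0.50 for signal peptidase, so the order of the complexes changed. The difference between complexes was not tested.

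**Figure D2:**
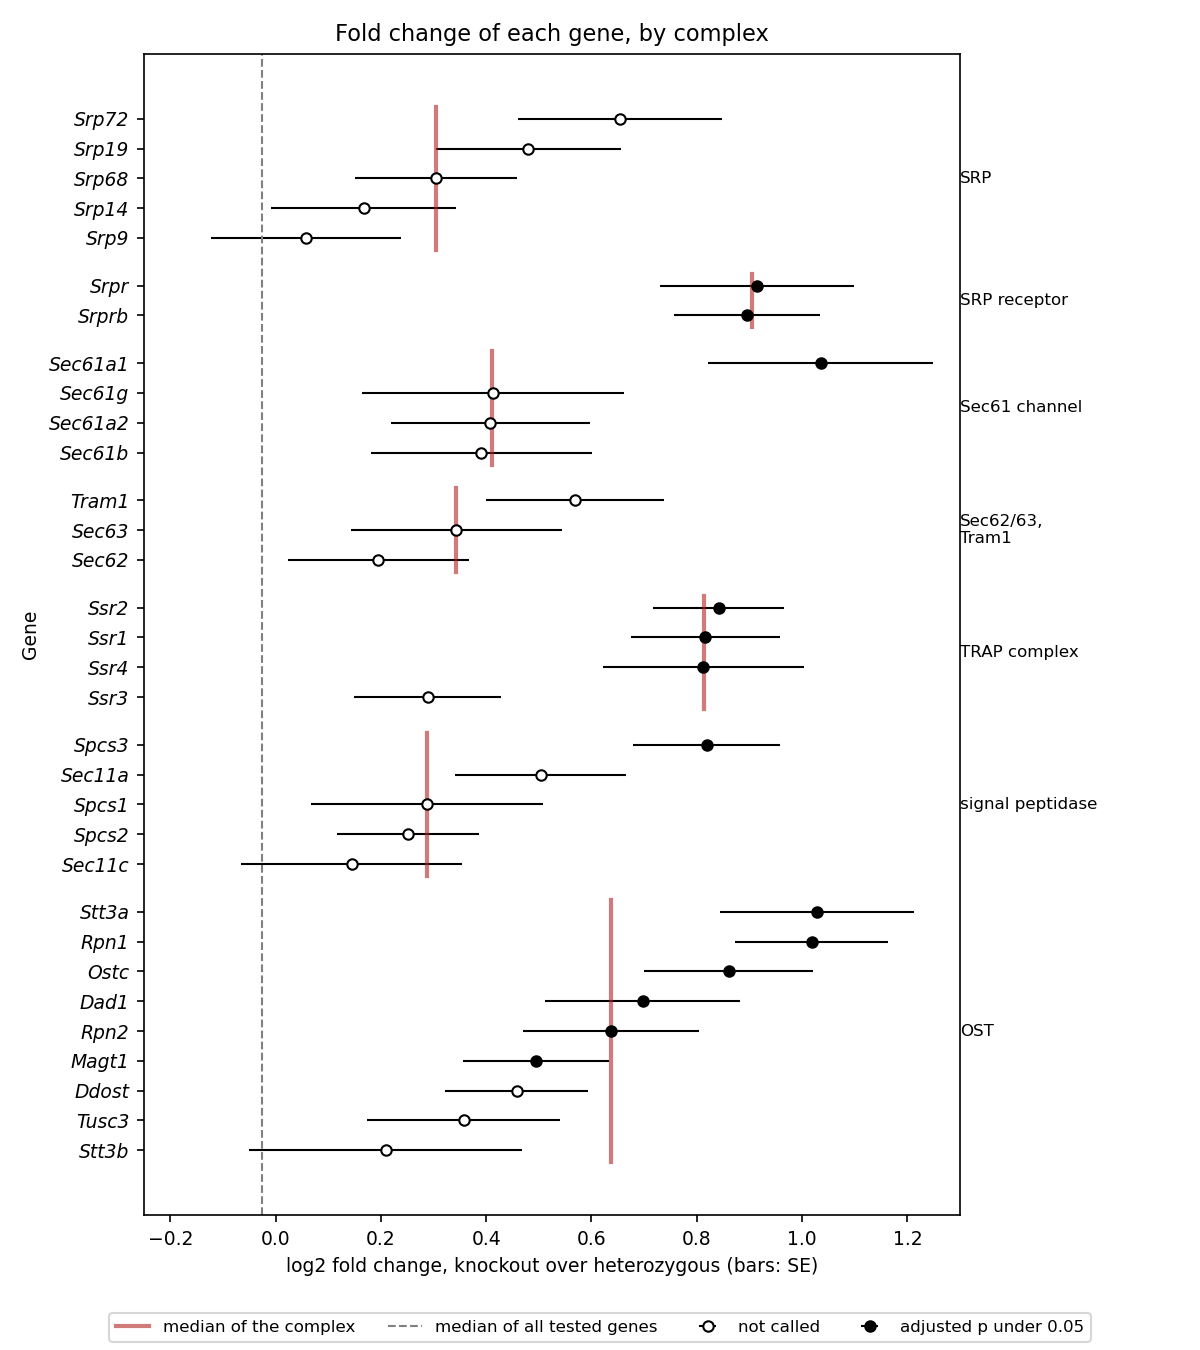
Log2 fold change of each gene (knockout over heterozygous, circles) with its standard error (bars), ordered within each complex; filled circles mark the 13 genes called. The thick lines mark the median of each complex, from 0.91 for the receptor to 0.29 for signal peptidase, and the dashed line the median of all tested genes, -0.03.

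The signal recognition particle binds the signal sequence and slows the ribosome. Its summed level was 788 ± 54.6 CPM in knockout and 646 ± 72.7 CPM in heterozygous libraries (SD, n = 4 each), a ratio of 1.22, and the sums overlapped, with 719.8 CPM in knockout 4 below 751 CPM in heterozygous 4. Srp72, which with Srp68 forms a pair of proteins on the RNA of the particle, had 153, 115, 119 and 163 CPM in knockout libraries 1 to 4, against 61.4, 87.1, 107 and 94.2 CPM in heterozygous libraries 1 to 4. With TMM scaling every knockout library was above every heterozygous library, but the gene was not called (log2 fold change 0.65 ± 0.19 SE, edgeR adjusted p = 0.0587). DESeq2 called Srp72 (adjusted p = 0.0147) and limma voom did not (adjusted p = 0.0504). Srp68 had 130.2, 98.7, 105 and 135 CPM in knockout libraries, against 101, 81.0, 102 and 95 CPM in heterozygous libraries, with knockout 2 between the heterozygous values (log2 fold change 0.30 ± 0.15 SE). Srp19, which helps to assemble the particle, had 107, 141, 147 and 98.4 CPM in knockout libraries, against 94.3, 81.9, 74.7 and 102 CPM in heterozygous libraries, with knockout 4 alone below the highest heterozygous value (0.48 ± 0.18 SE). The small subunits Srp9 and Srp14, which form the part that slows the ribosome, overlapped across most of their ranges. Srp9 had 129.8 to 199.7 CPM in knockout and 123 to 188 CPM in heterozygous libraries (0.06 ± 0.18 SE), and Srp14 had 193 to 296 CPM in knockout and 177 to 272 CPM in heterozygous libraries (0.17 ± 0.18 SE). Per kilobase of mRNA (kb), mean levels within the particle ran from 38.0 CPM per kb (Srp72) to 313 CPM per kb (Srp14) in knockout libraries and from 24.1 CPM per kb (Srp72) to 279 CPM per kb (Srp14) in heterozygous libraries.

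The receptor of the particle has a GTPase on the ribosome side, encoded by Srpr, and a membrane-anchored GTPase, encoded by Srprb. Srpr had 575, 404, 531 and 502 CPM in knockout libraries 1 to 4, against 191, 280.4, 333 and 263 CPM in heterozygous libraries 1 to 4. The groups were apart, with heterozygous 1 the lowest library. The mean was 503 ± 72.3 CPM in knockout and 267 ± 58.6 CPM in heterozygous libraries (SD, n = 4 each), 1.88-fold higher (log2 fold change 0.91 ± 0.18 SE, edgeR adjusted p = 0.0133). Srprb had 267, 219.7, 207 and 268 CPM in knockout libraries, against 117, 139.5, 132 and 129 CPM in heterozygous libraries, also apart. Its heterozygous values had the smallest coefficient of variation of the 32 genes in that genotype, 7.36%, and it was 1.86-fold higher in knockout libraries (0.90 ± 0.14 SE, edgeR adjusted p = 0.00439). Srprb shares 888 exon bases with the same-strand gene Gm20425, so part of its count could belong to that annotation.

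The Sec61 channel is made of a large alpha subunit, which forms the pore and comes as Sec61a1 or Sec61a2, and the small beta and gamma subunits Sec61b and Sec61g. Sec61a1 (chr6:88503579-88518905, mm10) had 1079.9, 564, 739 and 928 CPM in knockout libraries 1 to 4, against 344, 422, 505 and 344 CPM in heterozygous libraries 1 to 4. The groups were apart, with knockout 2 the closest to the heterozygous range. The mean was 828 ± 224 CPM in knockout and 404 ± 77.1 CPM in heterozygous libraries (SD, n = 4 each), and the log2 fold change of 1.04 ± 0.21 SE was the largest of the 32 genes (2.05-fold, edgeR adjusted p = 0.0149). It shares 549 exon bases with the opposite-strand gene Gm44170, so part of its count could belong to that annotation. The other channel genes had similar, smaller fold changes and none was called. Sec61b had 159, 226, 182 and 129.8 CPM in knockout libraries, against 127, 132, 98.2 and 174 CPM in heterozygous libraries (log2 fold change 0.39 ± 0.21 SE). Sec61g had 149, 257, 205 and 117 CPM in knockout libraries, against 155, 123, 100.2 and 168 CPM in heterozygous libraries (0.41 ± 0.25 SE). Both genes overlapped between genotypes, with knockout 2 the highest library and knockout 4 the lowest knockout library. The other alpha form, Sec61a2, had 27.9 to 39.4 CPM in knockout and 22.6 to 30.0 CPM in heterozygous libraries (0.41 ± 0.19 SE). Sec61a2 shares 909 exon bases with the opposite-strand protein-coding gene Nudt5, so part of its count could belong to that gene. Per kb, the alpha subunit Sec61a1 averaged 261 CPM per kb in knockout and 127 CPM per kb in heterozygous libraries, Sec61b 309 CPM per kb in knockout and 235 CPM per kb in heterozygous libraries, and Sec61g 238 CPM per kb in knockout and 178 CPM per kb in heterozygous libraries. The channel sum was 1423, 1084, 1165 and 1203 CPM in knockout libraries, against 656, 699, 732 and 709 CPM in heterozygous libraries, apart in every library.

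Sec62 and Sec63 open the channel for chains that arrive after they are made, and Tram1 lies beside the channel and assists some signal sequences. Tram1 had 292, 235, 296 and 264 CPM in knockout libraries 1 to 4, against 129, 207, 194 and 202 CPM in heterozygous libraries 1 to 4. The groups were apart and heterozygous 1 lay far below the other heterozygous libraries. The gene was not called (log2 fold change 0.57 ± 0.17 SE, edgeR adjusted p = 0.0604), but was by DESeq2 (adjusted p = 0.0141) and by limma voom (adjusted p = 0.0464). Sec62 had 89.3 to 132 CPM in knockout and 82.9 to 118 CPM in heterozygous libraries (0.19 ± 0.17 SE), and Sec63 had 44.8 to 75.1 CPM in knockout and 41.0 to 59.6 CPM in heterozygous libraries (0.34 ± 0.20 SE); both overlapped.

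The TRAP complex sits on the Sec61 channel and helps chains with weak signal sequences to enter; Ssr1, Ssr2, Ssr3 and Ssr4 encode its subunits. With TMM scaling every TRAP gene was apart between genotypes. The summed level was 1396, 1502, 1451 and 1315 CPM in knockout libraries, against 774, 909, 854 and 944 CPM in heterozygous libraries. Ssr2 had 693, 763, 724 and 642 CPM in knockout libraries 1 to 4, against 364, 412, 372 and 427 CPM in heterozygous libraries 1 to 4. The libraries of each genotype lay close together, at 706 ± 51.1 CPM in knockout and 394 ± 30.7 CPM in heterozygous libraries (SD, n = 4 each), and the gene was 1.79-fold higher (log2 fold change 0.84 ± 0.12 SE, edgeR adjusted p = 0.00384). Ssr1 had 242, 240.4, 218 and 239 CPM in knockout libraries, against 104, 143, 140.3 and 146 CPM in heterozygous libraries. It was 1.76-fold higher (0.82 ± 0.14 SE, edgeR adjusted p = 0.00691). Ssr4 had 190.5, 226, 159 and 157 CPM in knockout libraries, against 96.1, 95.1, 85.1 and 140.4 CPM in heterozygous libraries, with heterozygous 4 next to the knockout range. It was called (0.81 ± 0.19 SE, edgeR adjusted p = 0.0259) but lost the call without heterozygous 1, 2 or 3 or without knockout 1. Ssr3 had the smallest fold change of the complex, with 270.4, 272, 349.9 and 277 CPM in knockout libraries, against 209.6, 259, 257 and 231 CPM in heterozygous libraries. Its groups were apart by a narrow gap that depends on the scaling, and it was not called (0.29 ± 0.14 SE, edgeR adjusted p = 0.223). In mean level per kb the complex ran from 594 CPM per kb in knockout and 331 CPM per kb in heterozygous libraries for Ssr2 to 25.2 CPM per kb in knockout and 14.3 CPM per kb in heterozygous libraries for Ssr1. The value of Ssr1 depends on its annotated mRNA of 9333 bases.

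Signal peptidase cuts the signal sequence with a catalytic subunit that is encoded by Sec11a or Sec11c and is joined by Spcs1, Spcs2 and Spcs3. Of the 5 genes Spcs3, an essential accessory subunit, was called. It had 139.9, 146, 149 and 167 CPM in knockout libraries 1 to 4, against 71.6, 86.0, 97.1 and 86.2 CPM in heterozygous libraries 1 to 4. The groups were apart, at 150.5 ± 11.8 CPM in knockout and 85.2 ± 10.4 CPM in heterozygous libraries (SD, n = 4 each), 1.76-fold higher (log2 fold change 0.82 ± 0.14 SE, edgeR adjusted p = 0.00634). Sec11a had 243, 321, 283 and 217 CPM in knockout libraries, against 174, 196, 159.6 and 219.8 CPM in heterozygous libraries, with knockout 4 just below heterozygous 4 (0.50 ± 0.16 SE, edgeR adjusted p = 0.0798). DESeq2 called Sec11a (adjusted p = 0.0364) and limma voom did not (adjusted p = 0.0736). Spcs1, Spcs2 and Sec11c overlapped between genotypes, with log2 fold changes of 0.29 ± 0.22 SE, 0.25 ± 0.13 SE and 0.14 ± 0.21 SE. The summed level was 1096, 1289, 1249.8 and 979.8 CPM in knockout libraries, against 814, 910.2, 792 and 1065 CPM in heterozygous libraries, and overlapped through knockout 4 and heterozygous 4.

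**Figure D3:**
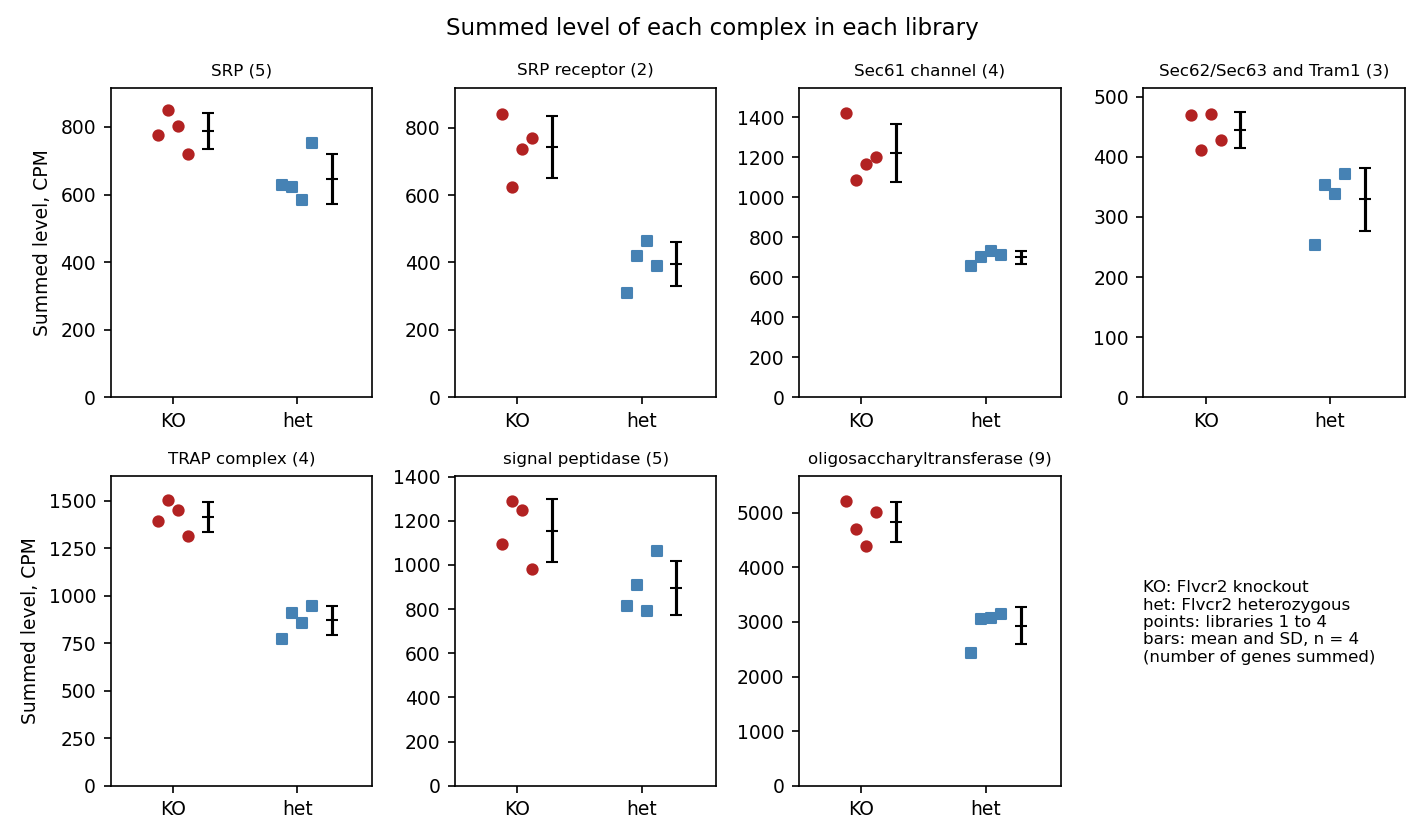
Summed level (CPM) of the genes of each complex in knockout libraries (red circles, left) and heterozygous libraries (blue squares, right), with mean and SD (n = 4 each); axes start at 0. The 2 genotypes are apart for the receptor, the Sec61 channel, the group of Sec62, Sec63 and Tram1, TRAP and the oligosaccharyltransferase, and overlap for the SRP and signal peptidase.

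The oligosaccharyltransferase exists in a pair of forms that share most subunits. The form with the catalytic subunit Stt3a works beside the Sec61 channel on chains as they enter, with Ostc as an adaptor, and the form with Stt3b reaches sites that were missed and carries the oxidoreductases Magt1 or Tusc3. Rpn1, Rpn2, Ddost and Dad1 are shared. The summed level of the 9 genes was 5214, 4703, 4390.2 and 5018 CPM in knockout libraries 1 to 4, against 2431, 3062, 3076 and 3150.3 CPM in heterozygous libraries 1 to 4, apart in every library, a ratio of 1.65.

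Rpn1 (ribophorin I, chr6:88084482-88105304, mm10) had the smallest edgeR adjusted p of the 32 genes, and the promoters of Rpn1 and of both catalytic forms are printed to show their sequence beside these levels; they were picked after the values were seen. The sequences are the 250 bases before the gene start in RefSeq, build GRCm38.p6, on the strand of the gene, with CCAAT and CCACG in capitals on either strand. They lie at chr6:88084223-88084472 (Rpn1, plus strand), chr9:36767623-36767872 (Stt3a, minus strand) and chr9:115310469-115310718 (Stt3b, minus strand), directly before the RefSeq start. The Stt3a window reaches into the gene as GENCODE vM21 annotates it, and the windows of Rpn1 and Stt3b do not.
Rpn1: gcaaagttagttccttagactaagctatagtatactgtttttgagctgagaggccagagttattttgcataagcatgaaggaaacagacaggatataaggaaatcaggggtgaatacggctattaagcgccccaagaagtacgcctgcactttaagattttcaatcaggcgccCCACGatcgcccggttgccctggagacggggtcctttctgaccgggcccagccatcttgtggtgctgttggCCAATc
Stt3a: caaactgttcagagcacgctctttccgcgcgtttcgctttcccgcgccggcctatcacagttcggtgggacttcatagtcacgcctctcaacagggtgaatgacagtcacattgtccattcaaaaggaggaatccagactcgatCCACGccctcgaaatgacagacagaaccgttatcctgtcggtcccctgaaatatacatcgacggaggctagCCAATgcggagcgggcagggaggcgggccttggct
Stt3b: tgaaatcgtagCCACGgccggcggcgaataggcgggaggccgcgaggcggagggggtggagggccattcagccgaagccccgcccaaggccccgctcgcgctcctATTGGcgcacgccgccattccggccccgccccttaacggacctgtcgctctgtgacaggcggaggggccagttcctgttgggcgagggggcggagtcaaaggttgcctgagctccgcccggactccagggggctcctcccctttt
Each window holds 1 CCAAT box and 1 CCACG. In Stt3b the CCAAT box lies on the opposite strand and reads ATTGG.

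Rpn1 had 1083, 912, 906 and 1125 CPM in knockout libraries 1 to 4, against 419, 520.2, 564 and 484 CPM in heterozygous libraries 1 to 4. The groups were far apart, at 1006 ± 114 CPM in knockout and 497 ± 61.5 CPM in heterozygous libraries (SD, n = 4 each), 2.03-fold higher (log2 fold change 1.02 ± 0.14 SE, edgeR adjusted p = 0.00309). Rpn2 (ribophorin II) had 860, 692, 592 and 880.1 CPM in knockout libraries, against 404, 493, 564 and 483 CPM in heterozygous libraries, with knockout 3 close to the highest heterozygous library. It was called (0.64 ± 0.17 SE, edgeR adjusted p = 0.0384) and lost the call without heterozygous 1, 2 or 4 or without knockout 1 or 4. Ddost, the OST48 subunit, had 833, 855, 651 and 815 CPM in knockout libraries, against 511, 604, 582 and 597 CPM in heterozygous libraries. The groups were apart but the gene was not called (0.46 ± 0.14 SE, edgeR adjusted p = 0.0587). Without knockout 3 it was, and also by DESeq2 (adjusted p = 0.00831) and by limma voom (adjusted p = 0.0471). Dad1, a small subunit named for its defence against cell death, had 601, 664, 543 and 459 CPM in knockout libraries, against 296, 337, 293 and 470 CPM in heterozygous libraries. Knockout 4 lay below heterozygous 4, and the call (0.70 ± 0.18 SE, edgeR adjusted p = 0.0398) was lost in 6 of 8 leave-one-out fits and kept without heterozygous 4 and without knockout 4.

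Stt3a (chr9:36729344-36767679, mm10) had 736, 518, 688 and 753 CPM in knockout libraries 1 to 4, against 234, 348, 375 and 362 CPM in heterozygous libraries 1 to 4. The groups were apart, with knockout 2 the lowest knockout library, at 674 ± 107 CPM in knockout and 330.1 ± 64.9 CPM in heterozygous libraries (SD, n = 4 each), 2.04-fold higher (log2 fold change 1.03 ± 0.18 SE, edgeR adjusted p = 0.00796). Stt3b (chr9:115242581-115310421, mm10) had 303, 154, 255 and 309 CPM in knockout libraries, against 141, 242, 296 and 204 CPM in heterozygous libraries. The groups overlapped over most of their range, at 255 ± 71.7 CPM in knockout and 221 ± 65.3 CPM in heterozygous libraries (SD, n = 4 each; 0.21 ± 0.26 SE, edgeR adjusted p = 0.659). Ostc had 596, 663, 549 and 472 CPM in knockout libraries, against 273, 338, 269 and 375 CPM in heterozygous libraries, apart and 1.82-fold higher (0.86 ± 0.16 SE, edgeR adjusted p = 0.00977). Of the Stt3b partners, Magt1 had 107, 101, 103 and 104 CPM in knockout libraries, against 63.2, 81.1, 66.8 and 83.3 CPM in heterozygous libraries, apart and with a coefficient of variation in knockout libraries of 2.69%, the smallest of the 32 genes in that genotype. Its call was at the threshold (0.49 ± 0.14 SE, edgeR adjusted p = 0.0491) and was lost in 7 of 8 leave-one-out fits and kept without heterozygous 4. Tusc3 had 94.6, 144, 103 and 101 CPM in knockout libraries, against 90.9, 98.4, 65.1 and 91.3 CPM in heterozygous libraries, overlapping through knockout 1 alone (0.36 ± 0.18 SE). Per kb, mean levels of Stt3a were 115 CPM per kb in knockout and 56.3 CPM per kb in heterozygous libraries, those of Stt3b 60.5 CPM per kb in knockout and 52.3 CPM per kb in heterozygous libraries, and those of Ostc 534 CPM per kb in knockout and 294 CPM per kb in heterozygous libraries.

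A ratio of 2 genes within a library does not depend on the scaling of library size; no test was made of these ratios. The ratio of Stt3a to Stt3b in CPM was 2.43, 3.36, 2.70 and 2.43 in knockout libraries 1 to 4, against 1.66, 1.44, 1.27 and 1.77 in heterozygous libraries 1 to 4. Every knockout library was above every heterozygous library, at 2.73 ± 0.438 in knockout and 1.54 ± 0.226 in heterozygous libraries (SD, n = 4 each); per kb the ratio was 1.75 to 2.42 in knockout and 0.911 to 1.28 in heterozygous libraries. The other alternative subunits overlapped: the ratio of Sec61a1 to Sec61a2 was 31.7, 15.2, 18.8 and 33.3 in knockout libraries, against 11.4, 18.6, 17.7 and 15 in heterozygous libraries. Knockout 1 and 4 were far above all heterozygous libraries, knockout 3 just above the highest of them, and knockout 2 within their range. The exon overlap of Sec61a2 with Nudt5 applies to this ratio too. The ratio of Sec11a to Sec11c was 1.98, 2.56, 1.89 and 2.54 in knockout libraries, against 2.22, 1.80, 1.47 and 1.57 in heterozygous libraries, and that of Magt1 to Tusc3 was 0.698 to 1.13 in knockout and 0.696 to 1.03 in heterozygous libraries. Ratios of Sec61a1 to Sec61b, picked after the values were seen, were 6.78, 2.49, 4.07 and 7.15 in knockout libraries, against 2.70, 3.20, 5.14 and 1.98 in heterozygous libraries, and they overlapped too.

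**Figure D4:**
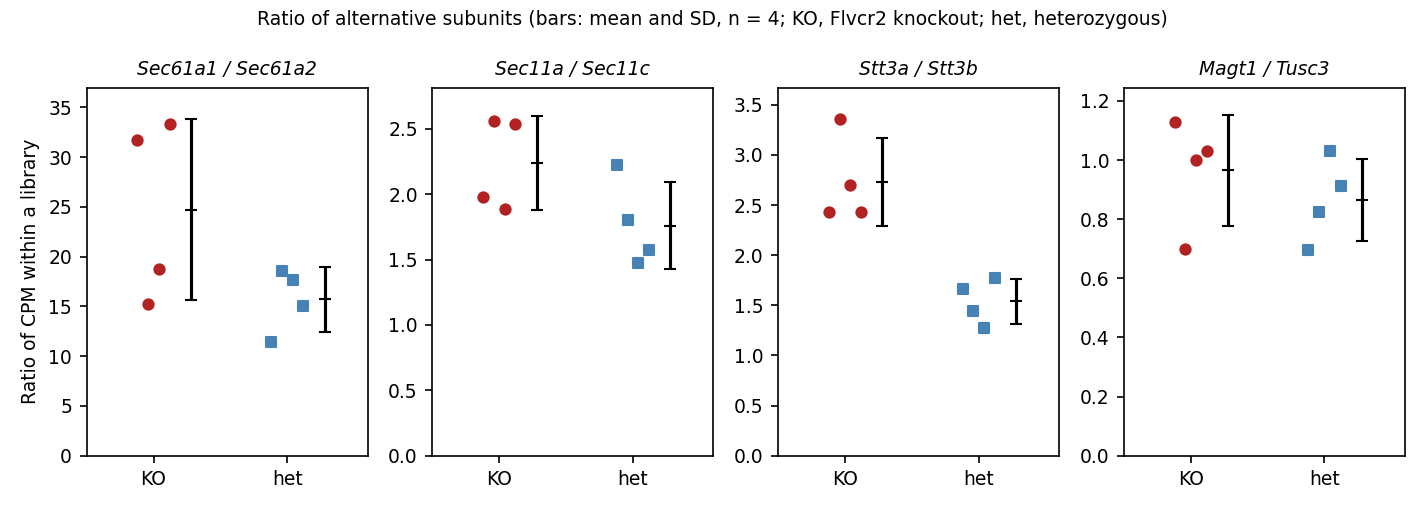
Ratio of CPM of 2 alternative subunits in each library (knockout red circles, heterozygous blue squares), with mean and SD (n = 4 each), each axis from 0. The ratio of Stt3a to Stt3b is 2.43 to 3.36 in knockout and 1.27 to 1.77 in heterozygous libraries; the other ratios overlap.

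The 13 called genes differed in how much they depended on single libraries. Rpn1, Ssr2, Srprb, Spcs3, Ssr1, Stt3a, Ostc, Srpr and Sec61a1, 9 in all, were called whichever of the 8 libraries was left out, and Ssr4, Rpn2, Dad1 and Magt1 were not. Without heterozygous 2 and knockout 1 together 3 genes were called, Srprb, Ssr2 and Rpn1, and without heterozygous 1 and knockout 2 together the 9 were.

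Libraries of the same genotype did not rank alike for all members. Knockout 2 had the highest level of the 4 knockout libraries for 14 of the 32 genes (43.8%, against 29.1% of tested genes), and knockout 4 the lowest for 15 (46.9%, against 20.7%). Heterozygous 4 was highest for 16 genes of 32 (against 27.2% of tested genes) and heterozygous 3 lowest for 12 (37.5%, against 22.0%), while heterozygous 1 was lowest for 18 (56.2%, against 29.4%). These libraries were singled out after the values were seen. Spearman's rho between mRNA length and log2 of knockout 2 over knockout 4 was -0.766 over the 32 genes and -0.306 over 13414 genes with a length; for heterozygous 4 over heterozygous 3 it was -0.686 and -0.323. Between mRNA length and the log2 fold change of knockout over heterozygous it was 0.28 over the 32 genes and -0.063 over all. These are correlations across genes, which share libraries and are not independent replicates, and they carry no p. The 11 genes with mRNAs under 1500 bases had a median log2 fold change of 0.41 with 3 called, and the 21 longer genes 0.57 with 10 called. Over all tested genes with a length the medians were 0.04 for 2356 short genes, of which 5.52% were called higher, and -0.04 for 11058 longer genes, of which 5.57% were called higher. The part of transcript length in the comparison of genotypes was not tested.

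**Figure D5:**
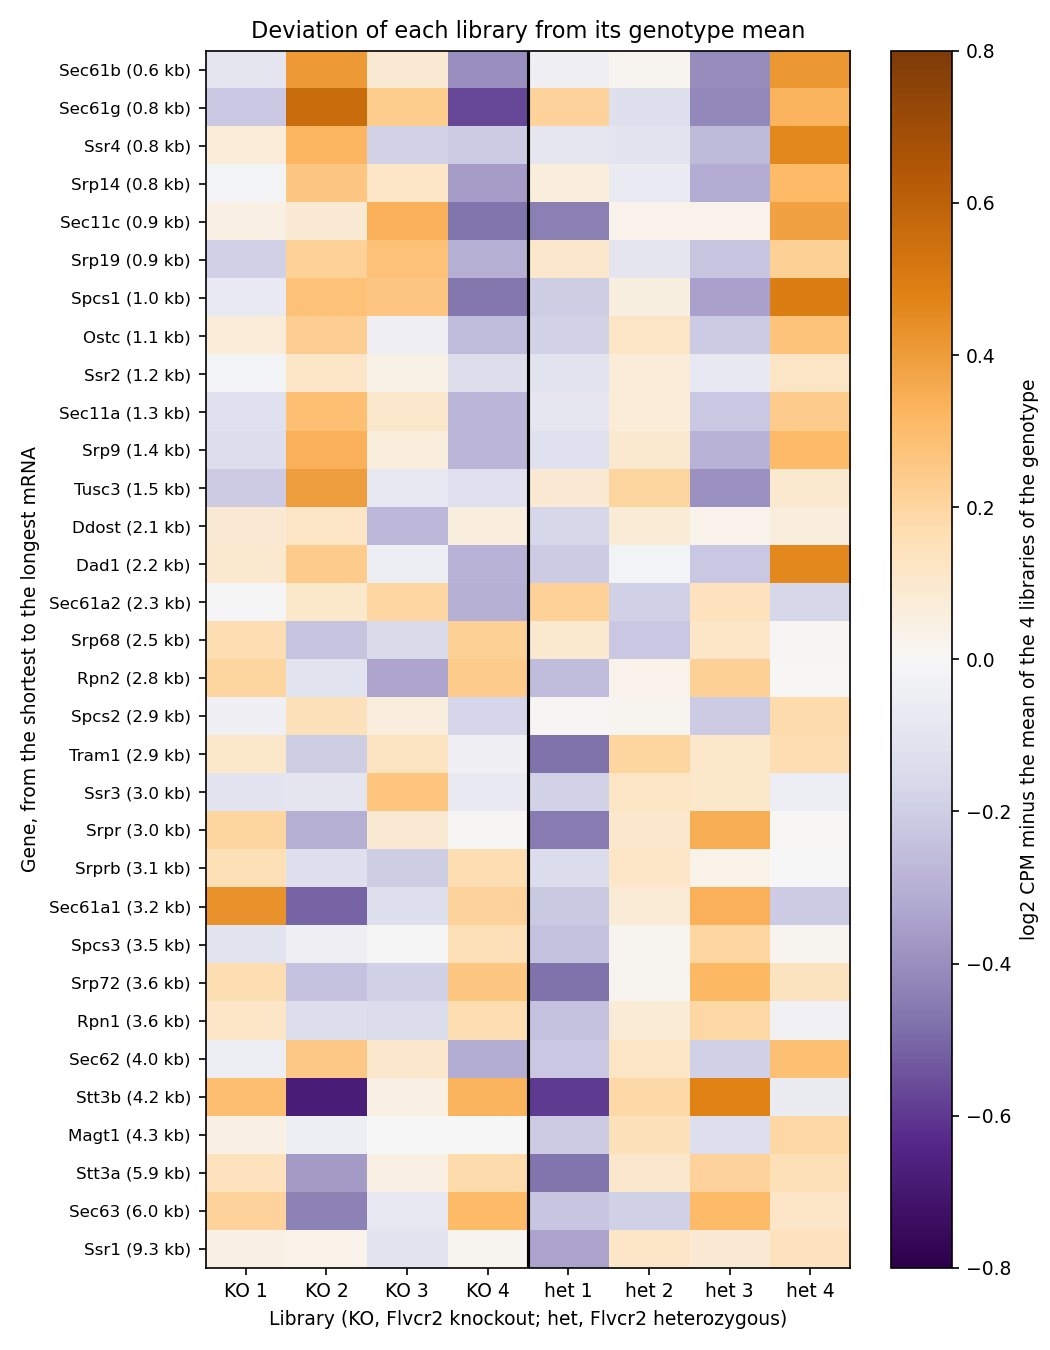
Log2 CPM of each gene in each library minus the mean of the 4 libraries of its genotype (colour scale), with genes from the shortest mRNA (top) to the longest (bottom) and knockout libraries left of heterozygous ones. Most short mRNAs are high in knockout 2 and heterozygous 4 and low in knockout 4 and heterozygous 3; many of the longer ones run the other way in knockout 2 and heterozygous 3.

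The coefficient of variation among libraries of a genotype had a median of 16.0% in knockout (2.69% for Magt1 to 33.8% for Sec61g) and 17.1% in heterozygous libraries (7.36% for Srprb to 29.6% for Stt3b).

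Promoter windows of 250 bases before to 50 bases after the start were found in RefSeq (GRCm38.p6) for 23 of the 32 genes, among them 9 of the 13 called. The ER stress elements ERSE (CCAAT, any 9 bases, CCACG) and ERSE-II (ATTGG, any 1 base, CCACG), the XBP1 and ATF6 element TGACGTGG and the ATF4 element TGATGNAA had 0 matches on either strand in these 23 windows. Of 32851 promoters, 0.119%, 0.0365%, 0.676% and 3.97% had one. Among the promoters of tested genes the shares were 0.129%, 0.0605%, 0.931% and 2.23%. Motifs this rare leave few matches to be found in 23 windows. CCACG, the shorter motif within both ER stress elements, was found in 15 of 23 (65.2%, against 46.1% of the promoters of tested genes), with 6 of the 9 called. CCAAT, the NF-Y box, was found in 13 of 23 (56.5%, against 37.1%), with 6 of the 9 called. Windows of ERSE hold a CCAAT and a CCACG by construction, and TGACGTGG read on the opposite strand holds a CCACG, so these motifs overlap. A match is a description of letters, and an absent match says only that those letters are not in the window.

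Other genes of the pathway came from lists chosen for function, with earlier results of these data known. Of their 78 genes 76 were tested, 14 called higher and 0 lower (0 lower also with DESeq2 and limma voom, and 0 at an unadjusted p under 0.05). Their median log2 fold change was 0.37. Over all tested genes 5.53% were called higher and 4.02% lower, with a median of -0.03. Nothing is read from the counts of these lists. Of 28 genes for the lipid-linked oligosaccharide and dolichol, 7 were called higher, with a median log2 fold change of 0.38. Gmppb, which makes GDP-mannose, averaged 95.7 ± 14.3 CPM in knockout and 41.0 ± 4.09 CPM in heterozygous libraries (SD, n = 4 each; 2.33-fold, edgeR adjusted p = 0.00196). Nus1, a subunit of the enzyme that makes the dolichol chain, averaged 82.0 ± 12.8 CPM in knockout and 35.5 ± 2.59 CPM in heterozygous libraries (2.31-fold, edgeR adjusted p = 0.00217). The mannosyltransferases Alg3 and Alg9 were 2.05-fold and 1.77-fold higher (edgeR adjusted p = 0.00479 and 0.0111).

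Of 13 genes for trimming the transferred sugar and for folding glycoproteins in the ER, 3 were called. Mogs, the first glucosidase, averaged 127 ± 23.6 CPM in knockout and 44.0 ± 8.71 CPM in heterozygous libraries (SD, n = 4 each; 2.89-fold, edgeR adjusted p = 0.00181). Ganab and Prkcsh, the catalytic and regulatory subunits of the second glucosidase, were 1.99-fold and 1.79-fold higher (edgeR adjusted p = 0.0308 and 0.0093), and the libraries of Ganab overlapped. Of 10 tested partners of the complexes, 3 were called. Ckap4, which links the ER to microtubules, averaged 564 ± 104 CPM in knockout and 185 ± 17.9 CPM in heterozygous libraries (3.06-fold, edgeR adjusted p = 7.08e-04). The signal peptide peptidase, listed as H13 (Hm13), and Rrbp1, the ribosome-binding protein, were 1.71-fold and 1.88-fold higher (edgeR adjusted p = 0.00609 and 0.00808).

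Other routes into the ER membrane were listed too. Of 10 genes of the ER membrane protein complex, which inserts some membrane proteins, 0 were called (3 at an unadjusted p under 0.05 by edgeR, 0 by DESeq2), with a median log2 fold change of 0.28. Emc10 averaged 246 ± 24.7 CPM in knockout and 209 ± 12.6 CPM in heterozygous libraries, and Emc3 190.2 ± 18.2 CPM in knockout and 152 ± 17.2 CPM in heterozygous libraries (SD, n = 4 each). Of 7 genes listed under the multipass translocon 0 were called (3 at an unadjusted p under 0.05 by edgeR, 0 by DESeq2), with a median of 0.38. That list took in Tram1l1, a Tram1-like gene, beside the genes of the translocon itself. Nomo1 averaged 327 ± 96.5 CPM in knockout and 217 ± 67.3 CPM in heterozygous libraries (log2 fold change 0.59 ± 0.26 SE), and Tmem147 averaged 189 ± 12.6 CPM in knockout and 171 ± 40.9 CPM in heterozygous libraries (0.14 ± 0.17 SE). The libraries of both genes overlapped. Of 8 genes for tail-anchored proteins and the SND route 1 was called, with a median of 0.01: Tmem208, the homologue of the yeast Snd2 protein, averaged 145 ± 22.8 CPM in knockout and 74.8 ± 14.4 CPM in heterozygous libraries (1.94-fold, edgeR adjusted p = 0.0093).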

How the data were processed

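The submitters deposited raw counts per gene symbol for 8 libraries, and the counts were used as deposited. The submitters' processing notes name TopHat2 0.7, Cufflinks 2.2.1 and the build mm10; not given in the sources used here are the counting program, whether it used strand and how it handled multi-mapping reads. Exons of 13 of the 32 genes overlap another annotated gene, and Spcs2 has a pseudogene copy that carries its name, so these counts are uncertain. Pseudogene copies under other names were not searched for, so counts of other genes may be affected too. No 2 libraries of a genotype agreed within sampling noise (lowest chi-square per degree of freedom 28.9).

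In R 4.3.3, filterByExpr of edgeR 4.0.16, at a minimum count of 10 and a minimum total of 15, kept 13540 genes with 99.9% of the counts; 6388 rows were at 0 in every library. Library sizes were scaled by TMM, and the 4 knockout libraries were compared with the 4 heterozygous libraries by the quasi-likelihood test on robust dispersions, with genotype as the only term, adjusted by Benjamini-Hochberg over all tested genes (threshold 0.05). Standard errors were taken as the absolute log2 fold change over the square root of F. Alternatives used DESeq2 1.42.0 and limma 3.58.1 (voom), other scalings, filters and left-out libraries. Lengths for levels per kb are median lengths of GENCODE vM21 transcripts paired with a curated RefSeq mRNA.

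The 32 genes, the pathway lists and the marker lists were chosen with earlier results of these data known. The named genes are all 32 members, and of each pathway list the called genes with the 4 smallest p-values, or the pair with the highest levels in a list with no call.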

Additional observations from a re-analysis of the deposited data

Results flagged for a closer look

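Of 64 groups of 4 libraries (32 genes in 2 genotypes), 4 held a library whose gap to the nearest of the others exceeded Dixon's critical share of the range; chance gives such a gap in about 1 in 20 groups. Tram1 in heterozygous 1 stood apart, at 129 CPM against 207, 194 and 202 CPM in the other heterozygous libraries. Ssr1 in knockout 3 stood apart, at 218 CPM against 242, 240.4 and 239 CPM in the other knockout libraries. Ssr1 in heterozygous 1 stood apart as well, at 104 CPM against 143, 140.3 and 146 CPM in the other heterozygous libraries. Ssr3 in knockout 3 stood apart, at 349.9 CPM against 270.4, 272 and 277 CPM in the other knockout libraries. Heterozygous 1 was the lowest heterozygous library in 18 of the 32 genes. Its endothelial marker sum was the lowest, at 6297 CPM against 9764, 11033 and 9739 CPM in heterozygous 2 to 4. Its neuron marker sum was the highest, at 1719.7 CPM against 282, 737 and 426 CPM, while its pericyte marker sum was the lowest, at 171 CPM. The part of these markers in its low values was not tested.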

How the results depend on the processing

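Under edgeR 749 genes were called higher and 544 lower, and 13 of the 32 genes were called higher. DESeq2 called 1104 higher, 1117 lower and 17 of the 32 genes, and limma voom 789 higher, 665 lower and 15 of the 32. With sample weights limma voom called 1186 higher, 1080 lower and 16 of the 32. An adjusted p under 0.10 gave 1125 higher, 956 lower and 17 of the 32 genes, and one under 0.01 gave 258 higher, 94 lower and 7 of the 32 genes. With library size alone 539 genes were called higher, 725 lower and 10 of the 32, and with upper-quartile factors 593, 642 and 11. The other-cell mean as a covariate left 0 calls higher, 0 lower and 0 of the 32 genes, and moved the median log2 fold change of the receptor to 0.65, of the channel to 0.89, of TRAP to 0.53 and of OST to 0.32. Leaving out 1 library gave 371 to 715 higher, 208 to 640 lower and 9 to 12 of the 32 genes; counts over all genes moved by over 1.5 times without heterozygous 1, 2 or 3 or knockout 1 or 4. Without heterozygous 2 and knockout 1 180 were called higher, 120 lower and 3 of the 32 genes, and without heterozygous 1 and knockout 2 307 genes were called lower. The replicate number as a block gave 433 higher, 435 lower and 9 of the 32 genes. Deviations of same-numbered libraries from their genotype means correlated at 0.0584, 0.211, -0.0459 and 0.0212. Of the 4 knockout libraries only knockout 2 deviated most like the heterozygous library of its own number. The labels do not say whether same-numbered libraries share a litter or a batch. These correlations cannot decide it, with 4 libraries per genotype. Directions turned for Srp9 (log2 fold change -0.061 with library size alone, -0.016 with upper-quartile factors, -0.017 with sample weights, -0.021 with the covariate, -0.063 to 0.18 leaving out 1 library, -0.11 without heterozygous 1 and knockout 2), for Ddost (-0.052) and Stt3b (-0.20) with the covariate, and for Sec11c (-0.0018) without heterozygous 1 and knockout 2 (0.016 to 0.29 leaving out 1 library). The causes were not tested. Of 672 comparisons of single genes, 590 kept direction and call. On the sense strand alone the share of all promoters with a match was 0.067% for ERSE, 0.335% for TGACGTGG, 18.6% for CCACG, 21.1% for CCAAT and 2.12% for TGATGNAA, as 1 strand holds fewer matches.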

Other observations

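Some subunits lay outside the named-gene rule and were picked after the values were seen. Krtcap2, an adaptor of the oligosaccharyltransferase form with Stt3a, averaged 329.5 ± 67.2 CPM in knockout and 203 ± 52.6 CPM in heterozygous libraries (SD, n = 4 each), with overlap and an edgeR adjusted p of 0.0578. The small OST subunits Ost4 and Tmem258 were not called (edgeR adjusted p = 0.0858 and 0.159), and averaged 439 ± 103 CPM in knockout and 282 ± 67.1 CPM in heterozygous libraries for Ost4, and 219.5 ± 70.9 CPM in knockout and 149 ± 28.8 CPM in heterozygous libraries for Tmem258. Srp54a, a form of the subunit that binds the signal sequence, was at 7.01 ± 0.252 CPM in knockout and 5.80 ± 0.33 CPM in heterozygous libraries. Every knockout library was above every heterozygous library, but Srp54a was not called (edgeR adjusted p = 0.63). The other forms had almost no counts, with at most 1 count in any library for Srp54b and 0 in every library for Srp54c. The handling of multi-mapping reads is not given, so the level of this subunit cannot be read from these values.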
